A study of Mus musculus with 12 samples.

Results

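The genes described are 10 neuronal splicing regulators, the RNA-binding proteins *Rbfox1*, *Rbfox2*, *Rbfox3*, *Nova1*, *Nova2*, *Ptbp1*, *Ptbp2*, *Elavl2*, *Elavl4* and *Srrm4*, taken by gene symbol from 36047 genes in cortical RNAseq of mice that lack GDE2. GDE2, encoded by *Gdpd5*, is a surface enzyme that cuts GPI-anchored proteins from the membrane. The 12 libraries came from cortex of WT and *Gde2*KO mice at 4 months and at 19 months, with 3 libraries in each of the 4 groups. The *Gde2*KO mice lack *Gde2* in every tissue, so the loss is not limited to neurons or to adult life, and the labels name no other allele and no treatment for either genotype. The study used mice of both sexes, and the sex behind a library is not given in the sources used here. The study counts animals for its RNAseq of 19 months, while for 4 months nothing in the sources used here ties each library to its own animal, so p-values there measure the spread between libraries, which may be technical. The 10 genes hold 102 of the 118489 transcripts in the deposited tables, and every one of the 10 passed the filter on low values at both ages. The comparisons ask whether the level or the annotated transcripts of these genes differed with genotype at each age, whether that difference changed with age, and how WT and *Gde2*KO cortex differed between the ages.

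Alternative splicing is more extensive in brain than in most tissues, and a small set of RNA-binding proteins sets which exons neurons keep. RBFOX proteins bind a short motif beside exons and promote or block their use according to the side on which they bind. NOVA proteins act in a similar way on synaptic transcripts, while SRRM4 drives the inclusion of very short neuronal exons called microexons. PTBP1 represses neuronal exons in dividing and non-neuronal cells, and is replaced by its paralog PTBP2 as neurons are born. ELAVL2 and ELAVL4, the neuronal Hu proteins, bind uridine-rich stretches and act on both splicing and mRNA stability.

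Several of these genes carry alternative exons of their own, and these exons recur below, so their sequences are shown first. They were cut from the GENCODE M21 transcripts of GRCm38 and are written 5′ to 3′ on the gene's strand. Capitals mark the bases at which the paralogs shown together differ. In *Rbfox1* and *Rbfox2*, an exon of 40 bases favored in brain and an exon of 43 bases favored in muscle are used in place of each other near the end of the coding sequence. The *Rbfox1* exons lie at chr16:7363865-7363904 and chr16:7369801-7369843 on the plus strand. The *Rbfox2* exons lie at chr15:77094451-77094490 and chr15:77091812-77091854 on the minus strand. The paralogs share 34 of 40 bases in the shorter exon and 27 of 43 in the longer.
Rbfox1 40-base exon: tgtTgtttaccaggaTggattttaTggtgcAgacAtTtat
Rbfox2 40-base exon: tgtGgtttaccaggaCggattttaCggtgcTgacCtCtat
Rbfox1 43-base exon: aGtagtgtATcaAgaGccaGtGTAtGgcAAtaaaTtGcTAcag
Rbfox2 43-base exon: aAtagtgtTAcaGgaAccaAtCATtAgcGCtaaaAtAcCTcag

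*Ptbp1* and *Ptbp2* each hold a coding exon of 34 bases, which is not a multiple of 3, so skipping it shifts the reading frame. The annotation classes the skipping transcripts of *Ptbp1* as nonsense-mediated decay, and those of *Ptbp2* as nonsense-mediated decay or retained intron. The *Ptbp1* exon lies at chr10:79862014-79862047 on the plus strand and the *Ptbp2* exon at chr3:119724612-119724645 on the minus strand, and 26 of their 34 bases are the same. *Elavl2* and *Elavl4* hold a coding exon of 39 bases, at chr4:91254141-91254179 and chr4:110209740-110209778 on the minus strand, with 33 of 39 bases in common. *Srrm4* itself has an annotated exon of 16 bases at chr5:116454673-116454688 on the minus strand, a length in the range of the microexons its protein acts on, and the transcript that includes it is classed as nonsense-mediated decay.
Ptbp1 34-base exon: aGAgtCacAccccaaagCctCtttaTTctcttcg
Ptbp2 34-base exon: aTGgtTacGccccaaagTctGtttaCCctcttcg
Elavl2 39-base exon: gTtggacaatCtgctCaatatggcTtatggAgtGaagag
Elavl4 39-base exon: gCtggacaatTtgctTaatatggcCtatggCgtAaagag
Srrm4 16-base exon: gaggagtccttgcttg

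Libraries held 46434135 to 59728927 estimated reads at 4 months and 3707927 to 44604657 at 19 months. *Gde2*KO library A and WT library A of 19 months were the shallow ones, and 1 read there was worth 8.29 and 4.66 normalized counts, against 0.597 to 0.847 in the other libraries. Normalized counts are estimated read counts divided by a size factor of each library, and log2 differences are on log2(normalized count + 0.5). *Gdpd5* checked the labels. It measured 685, 702 and 1200 normalized counts in WT and 417, 585 and 403 in *Gde2*KO at 4 months, and 1065, 1129 and 952 in WT against 441, 456 and 560 at 19 months. The *Gde2*KO libraries were lower than every WT library at both ages, and the difference passed the test at 19 months (log2 -1.11 ± 0.12 SE, limma adjusted p = 0.0111) but not at 4 months (-0.85 ± 0.25, adjusted p = 0.463). WT libraries 1 and 2 of 4 months stood apart from all others in hippocampus markers. Their 6 hippocampus markers summed to 10924 and 10400 normalized counts, against 1045 to 1707 in the other 4-month libraries and 755 to 1982 at 19 months, with no marker at 0 in any 4-month library. Their 7 striatum markers summed to 6081 and 5438, against 27771 to 78876 in the other 4-month libraries and 7978 to 21083 at 19 months. For striatum markers it was thus the other 4-month libraries, with all of *Gde2*KO among them, that stood above every 19-month library. All 4 cortex markers were found in each library (7640 to 10923). Averaged over these markers as log2 deviations from the mean of their age, WT 1 and 2 were the lowest at 4 months. They stood at -0.53 and -0.33, against -0.04 to 0.54 in the other 4-month libraries. *Gde2*KO library 3 of 4 months was the highest of its age for 5 of the 10 regulators and the lowest for 4. Its values summed to 41229086 normalized counts and 1472299 TPM. The other 4-month libraries summed to 31917431 to 35949224 normalized counts and 1003570 to 1103966 TPM, with *Gde2*KO 1 the next highest in both. In bulk tissue, fewer cells of a type and less RNA per cell cannot be told apart.

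Levels are compared between genes in TPM, an abundance unit that accounts for transcript length and is here also scaled by a size factor, over all 12 libraries. *Rbfox3*, whose protein is the neuronal marker NeuN, and *Rbfox1* were the highest at 275 ± 36.5 and 251 ± 23.0 TPM (SD, n = 12). Their ranges overlapped, and *Rbfox3* was above *Rbfox1* in 10 of 12 libraries. *Rbfox2*, which is also expressed outside neurons, followed at 109 ± 14.4 TPM, with no library in which its level reached the lowest of *Rbfox1*. *Ptbp2* stood at 67.7 ± 9.71 TPM, *Elavl2* at 45.4 ± 6.77 and *Elavl4* at 43.5 ± 6.63. *Elavl2* and *Elavl4* could not be ordered by their spread, since *Elavl2* was the higher in 8 of 12 libraries. *Nova1* (32.8 ± 8.29 TPM) and *Ptbp1* (30.3 ± 5.2) were likewise not separated, with *Nova1* above *Ptbp1* in 8 of 12. *Nova2* (22.3 ± 2.81) and *Srrm4* (15.5 ± 3.14) were the lowest, and *Nova2* was above *Srrm4* in all 12. The highest library was 2.90 times the lowest for *Nova1* and 1.42 to 1.92 times for the other 9 genes. *Ptbp2* was above *Ptbp1* in every library, with TPM of 53.7 to 80.7 against 23.9 to 40.1.

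At 4 months, none of the 10 regulators passed the test between genotypes (limma, adjusted p under 0.1 and a log2 difference above 0.72), where 0.126% of all 19035 genes did. At an unadjusted p under 0.05 there were 2 of 10, *Nova1* and *Elavl4*, against 10.6% of all genes. In normalized counts, the ranges of WT and *Gde2*KO were apart for 2 of 10, *Nova1* and *Srrm4*, against 15.4% of all genes. The median log2 difference of the 10 was 0.10, beside 0.11 for all genes. The latter became 0.01 with size factors recomputed on gene sums.
*Nova1*, at chr12:46694517-46818929, had the largest difference. It measured 1157, 1510 and 2105 normalized counts in WT libraries 1, 2 and 3, and 2250, 2496 and 2642 in *Gde2*KO. All 3 *Gde2*KO libraries were above all 3 WT libraries, and WT 1 and 2 were the lowest. The difference was 0.67 ± 0.21 (log2 ± SE, 1.59-fold, adjusted p = 0.463). On gene TPM it was 0.45 and the genotypes overlapped, with 15.81, 25.42 and 31.34 TPM in WT and 29.18, 41.24 and 26.95 in *Gde2*KO.

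*Rbfox3* (chr11:118489762-118911597) measured 8115, 8000 and 10495 normalized counts in WT and 12281, 10159 and 11204 in *Gde2*KO at 4 months. WT libraries 1 and 2 were again the lowest, WT 3 lay within the *Gde2*KO range, and the difference was 0.35 ± 0.15 (adjusted p = 0.463). *Elavl4* (chr4:110203722-110351909) measured 2341, 2873 and 2576 in WT and 3611, 2791 and 4199 in *Gde2*KO, a difference of 0.43 ± 0.17 (adjusted p = 0.463). Here *Gde2*KO libraries 1 and 3 were high and *Gde2*KO 2 lay within the WT range. The *Elavl4* difference was 0.29 without *Gde2*KO 3 and 0.33 with the recomputed size factors. *Srrm4* (chr5:116439275-116591817) measured 1409, 1645 and 1408 in WT and 1321, 1261 and 1147 in *Gde2*KO, so that every *Gde2*KO library was below every WT library. Its difference was -0.26 ± 0.13 (adjusted p = 0.476).

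In normalized counts, the other 6 regulators differed by less at 4 months, and their genotypes overlapped. *Nova2* (chr7:18925888-18965319) measured 3535, 3809 and 3599 in WT and 3843, 3376 and 2427 in *Gde2*KO, with *Gde2*KO 3 alone below the WT range (-0.21 ± 0.18). *Rbfox1* (chr16:5885355-7411526) and *Rbfox2* (chr15:77078990-77307004) differed by -0.0041 ± 0.14 and -0.16 ± 0.13. On gene TPM *Rbfox2* differed by -0.38, without overlap (103.5 to 122.4 TPM in WT, 75.84 to 99.73 in *Gde2*KO). At 19 months its TPM did not overlap either, in the other order (109.2 to 114.5 in WT, 116.2 to 123.7 in *Gde2*KO). *Ptbp1* (chr10:79854427-79864771) ranged from 900 to 995 in WT and from 990 to 1034 in *Gde2*KO (0.10 ± 0.12, and -0.08 on gene TPM). *Ptbp2* (chr3:119718742-119784466) measured 3954, 3928 and 3468 in WT and 3975, 3529 and 4738 in *Gde2*KO (0.10 ± 0.15, and -0.03 on gene TPM). *Elavl2* (chr4:91250763-91400785) spanned 2646 to 3133 in WT and 2525 to 4245 in *Gde2*KO (0.16 ± 0.19), the highest value being *Gde2*KO 3.

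**Figure D1:**
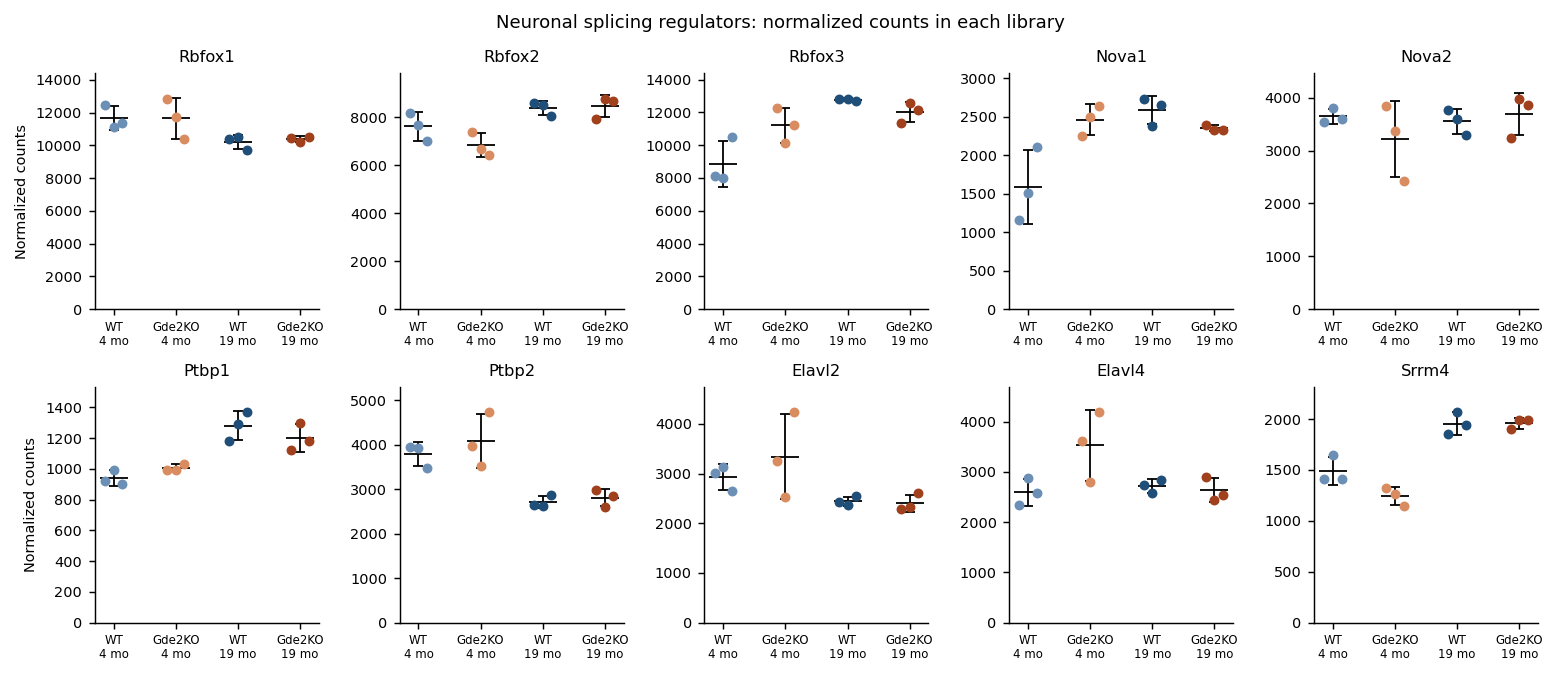
Normalized counts of the 10 regulators (vertical axes, from 0, a scale for each gene) in the 4 groups (horizontal axes), with a point for each library and black marks for the mean ± SD of 3. *Nova1* is lowest in WT libraries 1 and 2 of 4 months (1157 and 1510), while the groups of 19 months lie close together for every gene.

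At 4 months, WT libraries 1 and 2 held the highest hippocampus and the lowest striatum markers of their age and also the lowest *Nova1* and *Rbfox3*. Among the other 4 libraries, *Nova1* and striatum markers were not in the same order. *Gde2*KO 3 was the highest of these in *Nova1* (2642) and the lowest in striatum markers (27771). WT 3 was the lowest of these in *Nova1* (2105), with striatum markers at 55894. WT 1 and 2 were also the lowest in summed markers of oligodendrocytes (109018 to 113589 normalized counts, against 136377 to 151477 in the other 4), microglia (6417 to 6808, against 7877 to 11938) and endothelial cells (3629 to 3851, against 4610 to 5058). Astrocyte markers were not low there, with WT 1 the highest of its age (54904) and WT 2 (37680) within the range of the other 4 (31672 to 41504). Neuron markers were within the range of the other 4 (275362 and 299953, against 263001 to 364779). Without these libraries, against WT 3 alone and assuming that it varies like the *Gde2*KO libraries, the difference of *Nova1* was 0.22 ± 0.24 and that of *Rbfox3* 0.09 ± 0.26, while *Elavl4* stayed at 0.44 ± 0.29 and *Srrm4* at -0.18 ± 0.25 (adjusted p = 1 for all 4). Without WT 3 instead, *Nova1* passed the test at 0.89 (adjusted p = 0.018), where 1510 of 18798 genes did. The part of regional tissue and of these cell types in the differences was not tested.

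**Figure D2:**
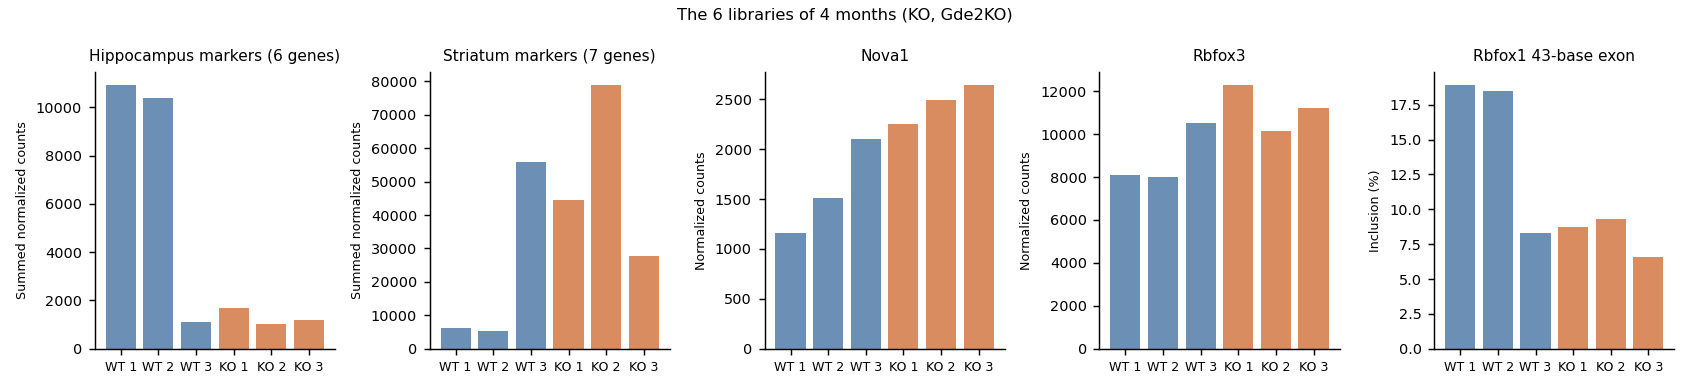
Bars for the 6 libraries of 4 months, in summed or single-gene normalized counts or in percent, each axis from 0. WT 1 and WT 2 have hippocampus markers of 10924 and 10400 and striatum markers of 6081 and 5438, the lowest *Nova1* and *Rbfox3* counts, and 18.9% and 18.5% inclusion of the *Rbfox1* 43-base exon against 6.61% to 9.33% in the other 4.

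At 19 months the genotypes lay close together in normalized counts. None of the 10 regulators passed the test (limma), where 0.0969% of 18583 genes did, and none had an unadjusted p under 0.05, against 6.91% of all genes. The median absolute log2 difference of the 10 was 0.05, beside 0.12 over all genes. In normalized counts, the libraries did not overlap for 1 of 10, *Rbfox3*, against 14.2% of all genes. On gene TPM there was also no overlap for *Rbfox3*, for *Rbfox2* (values above) and for *Ptbp2* (57.86 to 67.54 TPM in WT, 53.66 to 56.94 in *Gde2*KO). The share of all genes without overlap was not computed on TPM. *Rbfox3* measured 12845, 12813 and 12668 normalized counts in WT libraries A, B and C and 11337, 12554 and 12131 in *Gde2*KO, so that all WT libraries were above all *Gde2*KO libraries by a small margin. The lowest value was the shallow *Gde2*KO library A. The difference was -0.09 ± 0.05 (adjusted p = 0.733), and -0.05 without the shallow libraries.

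*Nova1* measured 2737, 2387 and 2651 normalized counts in WT and 2397, 2333 and 2328 in *Gde2*KO at 19 months. The *Gde2*KO values were the lower, in contrast with 4 months, but *Gde2*KO A was above WT B (-0.14 ± 0.07, adjusted p = 0.712). On gene TPM the *Nova1* means at 19 months were alike, 37.28 in WT and 37.26 in *Gde2*KO. The largest of the other 8 was *Ptbp1* at -0.09 ± 0.09, with 1180, 1290 and 1370 in WT and 1120, 1301 and 1178 in *Gde2*KO. In the shallow *Gde2*KO library A, *Ptbp1* rested on 135 estimated reads and *Rbfox3* on 1367, the extremes among the 10.

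**Figure D3:**
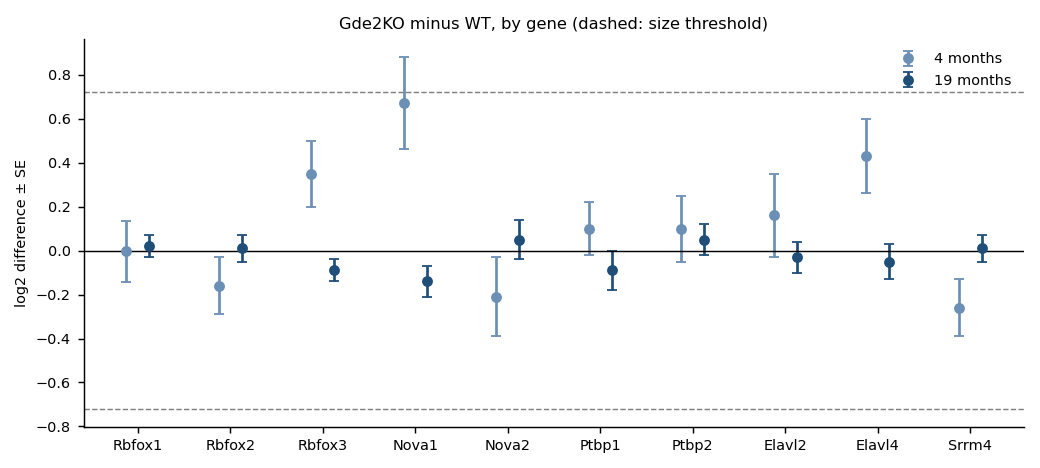
Log2 difference *Gde2*KO minus WT (vertical axis, points with SE) for each regulator at 4 months (light) and 19 months (dark), with dashed lines at the size threshold of 0.72. No point lies beyond the lines, and the points of 19 months stay between -0.14 and 0.05.

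The difference between the ages in the effect of genotype was tested in a fit of all 12 libraries. None of the 10 passed (limma, adjusted p under 0.1), where 0.0480% of 18731 genes did. At an unadjusted p under 0.05 there were 3 of 10, against 12.9% of all genes. *Nova1* had the largest value, -0.81 ± 0.24 (adjusted p = 0.368), followed by *Elavl4* at -0.48 ± 0.20 (adjusted p = 0.372) and *Rbfox3* at -0.44 ± 0.16 (adjusted p = 0.368). The value of each of the 3 was above 0 at 4 months and below 0 at 19 months, except that *Elavl4* at 19 months was 0.07 on gene TPM. Without WT library 3 of 4 months, *Nova1* (-1.03, adjusted p = 0.00223) and *Rbfox3* (-0.56, adjusted p = 0.0182) passed, where 2029 of 18522 genes did. Without WT 1 and 2 instead, which leaves 1 WT library of 4 months, *Nova1* and *Rbfox3* were -0.36 and -0.18.

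Between the ages, several regulators moved in the same direction in both genotypes. The ages are different sets of libraries, so age and library set cannot be told apart. In WT, 1 of 10 passed both thresholds, against 13.7% of all genes, and 5 of 10 passed the adjusted p alone, against 28.2%. In *Gde2*KO, 0 of 10 passed both thresholds, against 11.9% of all genes, and 6 of 10 passed the adjusted p alone, against 32.3%. At an unadjusted p under 0.05 there were 5 of 10 in WT and 6 of 10 in *Gde2*KO, against 34.5% and 37.5% of all genes. The median over all genes was -0.07 in WT and -0.21 in *Gde2*KO, and became -0.03 and -0.05 with size factors recomputed on gene sums, so values relative to the first pair of medians are also given. Cell-type markers moved with age as well. In WT, summed astrocyte markers spanned 32854 to 54904 normalized counts at 4 months and 24454 to 26247 at 19 months. Oligodendrocyte markers spanned 109018 to 139292 and then 79198 to 105250, and endothelial markers 3629 to 4610 and then 5017 to 6494. In *Gde2*KO, oligodendrocyte markers were lower at 19 months without overlap (136377 to 151477, then 93135 to 120824), while astrocyte and endothelial markers overlapped. Neuron markers overlapped in both genotypes. Striatum markers in *Gde2*KO were also lower at 19 months without overlap (27771 to 78876, then 9534 to 21083), and overlapped in WT (5438 to 55894, then 7978 to 10348). Hippocampus markers were lower at 19 months without overlap in WT (1101 to 10924, then 755 to 1009), and overlapped in *Gde2*KO. The part of these cell types and regions in the differences between ages was not tested.

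*Ptbp2*, the neuronal PTB protein, was lower at 19 months in both genotypes. Its WT libraries measured 3954, 3928 and 3468 normalized counts at 4 months and 2644, 2629 and 2867 at 19 months, and its *Gde2*KO libraries 3975, 3529 and 4738 and then 2971, 2594 and 2855. Neither genotype overlapped between ages. The log2 difference was -0.48 ± 0.11 in WT (adjusted p = 0.0141) and -0.53 ± 0.11 in *Gde2*KO (adjusted p = 0.011), or -0.41 and -0.32 relative to all genes. *Ptbp1*, its paralog outside neurons, was higher at 19 months, with 0.45 ± 0.10 in WT (adjusted p = 0.00979) and 0.25 ± 0.10 in *Gde2*KO (adjusted p = 0.0781), or 0.51 and 0.46 relative to all genes. Reads of *Ptbp1* can include those of *Plppr3*, which shares 251 exonic bases with it on the opposite strand, since no strand marking is stated for the kit.

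*Srrm4*, the microexon regulator, was higher at 19 months, with 1409, 1645 and 1408 in WT at 4 months and 1850, 2072 and 1939 at 19 months. In *Gde2*KO it went from 1321, 1261 and 1147 to 1899, 1988 and 1988, again without overlap. The differences were 0.40 ± 0.10 (adjusted p = 0.016) and 0.66 ± 0.10 (adjusted p = 0.00212), or 0.46 and 0.87 relative to all genes, and the latter passed the size threshold with the recomputed size factors (0.82). *Rbfox2* was higher in *Gde2*KO (0.31 ± 0.09, adjusted p = 0.0334) and *Elavl2* and *Elavl4* lower there (-0.45 ± 0.15, adjusted p = 0.0558, and -0.41 ± 0.14, adjusted p = 0.0535).

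*Nova1* and *Rbfox3* were higher at 19 months in WT, by 0.74 ± 0.17 (adjusted p = 0.0122) and 0.54 ± 0.11 (adjusted p = 0.00885), and *Nova1* was the gene past both thresholds. In *Gde2*KO their differences were -0.06 ± 0.17 (0.10 with the recomputed size factors and 0.20 on gene TPM) and 0.10 ± 0.11. The WT values rest on the 4-month libraries with high hippocampus markers. Without WT 1 and 2, *Nova1* was 0.30 and *Rbfox3* 0.28, with *Ptbp1* at 0.51, *Ptbp2* at -0.36 and *Srrm4* at 0.47. That fit leaves 1 WT library of 4 months, which has no spread of its own, so no call is read from it. *Nova1* also fell below the size threshold without WT 1 of 4 months (0.54), without WT A of 19 months (0.70) and without both shallow libraries (0.70). In *Gde2*KO, the count at the adjusted p alone was 3 without library 1 of 4 months, where 4542 of 18528 genes passed. It was 2 without library B of 19 months, where 3677 of 18576 did. The *Gde2*KO difference of *Ptbp2* stayed between -0.63 and -0.42, and that of *Srrm4* between 0.60 and 0.70, when any 1 library was left out.

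**Figure D4:**
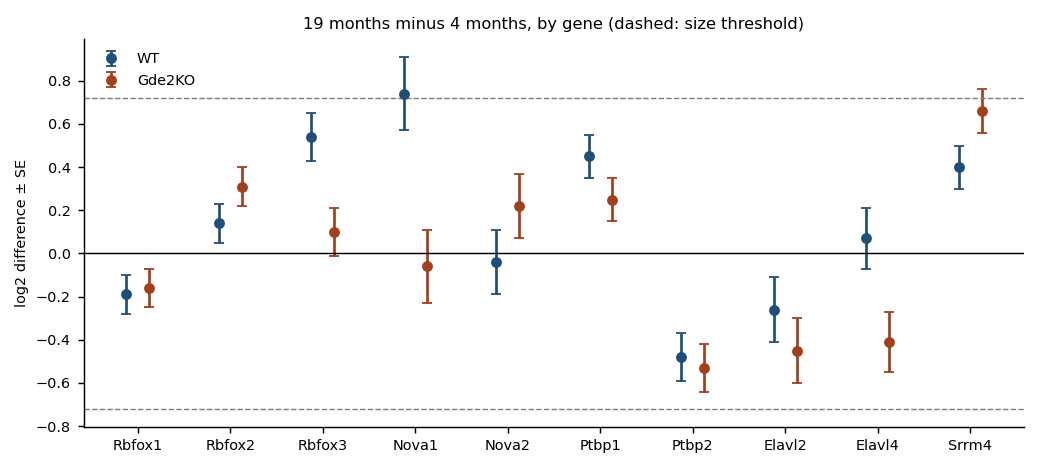
Log2 difference of 19 months minus 4 months (vertical axis, points with SE) for each regulator in WT (blue) and *Gde2*KO (brown), with dashed lines at the size threshold of 0.72. *Ptbp2* lies near -0.5 and *Ptbp1* and *Srrm4* above 0 in both genotypes, while *Nova1* is at 0.74 in WT and -0.06 in *Gde2*KO.

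Transcript usage, the share of a gene's RNA in each annotated transcript, was tested in limma with diffSplice. None of the 10 regulators was called at 4 months (adjusted p under 0.1 and a share that differed by over 10 percentage points), where 0.997% of 12235 genes were, and none at 19 months, where 0.171% of 12253 were. At an unadjusted p under 0.05 there was 1 of 10 at 4 months, against 12.6% of all genes, and 0 at 19 months, against 5.10%. The 1 was *Rbfox3* (adjusted p = 0.0103), with a largest share difference of 7.72 points. That transcript, Rbfox3-203, held 23.1%, 21.4% and 22.9% of *Rbfox3* TPM in WT and 27.6%, 23.4% and 39.6% in *Gde2*KO. *Gde2*KO 3 was far above the rest, and in the same library Rbfox3-204 held 11.4% against 26.6% to 29.5% in the other 5. The *Rbfox3* call was made without *Gde2*KO 2 (11.1 points, adjusted p = 0.0114), where 659 of 12244 genes were called. Without WT 1 and 2 the adjusted p was 1.

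The leading transcript of each gene was protein coding. Rbfox1-201 held 67.5% of *Rbfox1* TPM on average over the 12 libraries, Srrm4-201 56.3%, Ptbp2-201 50.6%, Nova1-201 49.6%, Rbfox2-203 43.2% and Ptbp1-216 37.2%. *Rbfox3*, *Elavl4* and *Elavl2* were spread more evenly, led by Rbfox3-205 at 32.0%, Elavl4-203 at 29.2% and Elavl2-208 at 27.6%. The annotated transcripts of *Nova2* are 2 with a single sequence, so its usage cannot be read. Rbfox1-201 differed most between genotypes at both ages for *Rbfox1*. It held 63.0%, 63.4% and 69.5% in WT and 74.6%, 70.9% and 76.9% in *Gde2*KO at 4 months, and 67.5%, 67.7% and 66.0% against 62.4%, 62.5% and 65.4% at 19 months. The groups did not overlap at either age and the order turned, from 8.82 points higher in *Gde2*KO to 3.63 points lower (two-sided exact permutation test, p = 0.1 at each age, the smallest that 3 against 3 libraries allow). Rbfox1-208 showed a difference between ages, with 3.50% to 9.43% of *Rbfox1* TPM over the 6 libraries of 4 months and 10.5% to 16.8% over those of 19 months. Among the other genes with more than a single sequence, the transcript that differed most moved by 3.6 to 7.84 points at 4 months, and by 3.88 to 11.4 points at 19 months, where the largest was Srrm4-203, a retained-intron transcript (24.6% in WT and 13.2% in *Gde2*KO, exact permutation p = 0.3).

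Exon inclusion was taken as the TPM of transcripts that include an exon over the TPM of those that include or skip it. Of 31 internal exons that another annotated transcript of the same gene skips, 14 had 5% or more of the gene's TPM on each side. Inclusion did not overlap between genotypes for 3 of 14 at 4 months, against 16.6% of 10021 such exons over all genes, and for 1 of 14 at 19 months, against 12.8%. Between ages it did not overlap for 2 of 14 in WT, against 25.0%, and for 1 of 14 in *Gde2*KO, against 18.2%. The WT exons were the *Rbfox2* 40-base exon, higher at 19 months, and the *Ptbp2* 34-base exon, lower at 19 months, and the *Gde2*KO exon was the *Elavl2* 91-base exon, higher at 19 months. Without the shallow libraries, 7 of 14 exons had no overlap between genotypes at 19 months, against 35.3% of all exons in the same libraries, and without WT 1 and 2, 8 of 14 had none at 4 months, against 47.1%.

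In *Rbfox1*, the 40-base brain exon and the 43-base exon were exact alternatives in the annotation, so their percentages sum to 100. The 43-base exon was included at 18.9%, 18.5% and 8.28% in WT and 8.70%, 9.33% and 6.61% in *Gde2*KO at 4 months. WT 1 and 2, the libraries with high hippocampus markers, held the highest inclusion of the 6 libraries, while WT 3 lay within the *Gde2*KO range (difference -7.02 points, exact p = 0.3). Against WT 3 alone the difference was -0.0607 points. At 19 months it was 11.4%, 9.49% and 9.87% in WT and 8.80%, 12.7% and 12.5% in *Gde2*KO (1.10 points, exact p = 0.4). In *Rbfox2* the 40-base exon was included at 76.1%, 78.3% and 76.1% in WT and 84.6%, 80.5% and 83.7% in *Gde2*KO at 4 months. All *Gde2*KO libraries were above all WT libraries, by 6.07 points on average (exact p = 0.1). The 43-base exon of *Rbfox2* moved the other way, from 14.3%, 12.5% and 15.4% to 8.86%, 12.2% and 11% (-3.36 points, exact p = 0.1). With shares taken of normalized counts in place of TPM, which weights long transcripts more, these differences shrank to 1.82 and -0.848 points. At 19 months both *Rbfox2* exons overlapped between genotypes, with 81.5%, 81.1% and 78.3% against 75.7%, 77.7% and 80.9% for the 40-base exon (-2.20 points, exact p = 0.2).

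The 34-base exon of *Ptbp2*, on which its productive mRNA depends, was included at 91.1%, 91.7% and 89.5% in WT and 91.9%, 92.1% and 94.4% in *Gde2*KO at 4 months. The groups did not overlap, with a difference of 2.03 points (exact p = 0.1), or 0.254 points with shares of normalized counts. At 19 months inclusion was 81.0%, 85.1% and 83.0% in WT, below every WT library of 4 months, and 82.8%, 88.5% and 93.5% in *Gde2*KO, which overlapped with WT. The share of *Ptbp2* TPM in nonsense-mediated decay transcripts was 6.90% ± 0.826 in WT and 5.61% ± 0.856 in *Gde2*KO at 4 months, and 13.6% ± 3.02 and 9.62% ± 4.81 at 19 months (SD, n = 3). The gene's normalized counts were lower at 19 months in both genotypes. In WT, the nonsense-mediated decay share at 19 months was higher than in any WT library of 4 months. In *Gde2*KO it overlapped between the ages, with 5.96%, 6.23% and 4.64% at 4 months and 14.6%, 9.35% and 4.95% at 19 months. The shallow libraries held the highest nonsense-mediated decay share of their groups at 19 months, Ptbp2-206 alone reaching 17.0% in WT A and 14.6% in *Gde2*KO A. Protein-coding transcripts held 74.7%, 76.1% and 76.3% of *Ptbp2* TPM in WT and 78.6%, 80.9% and 84.5% in *Gde2*KO at 19 months, with no overlap between genotypes (5.63 points, exact p = 0.1). The matching exon of *Ptbp1* was included at 85.8% to 92.4% in WT and 89.3% to 92.7% in *Gde2*KO at 4 months. At 19 months it was 83.5% and 80.5% in WT B and C and 84.2% and 90.0% in *Gde2*KO B and C, while both shallow libraries were at 100%, since no skipping transcript was counted there.

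**Figure D5:**
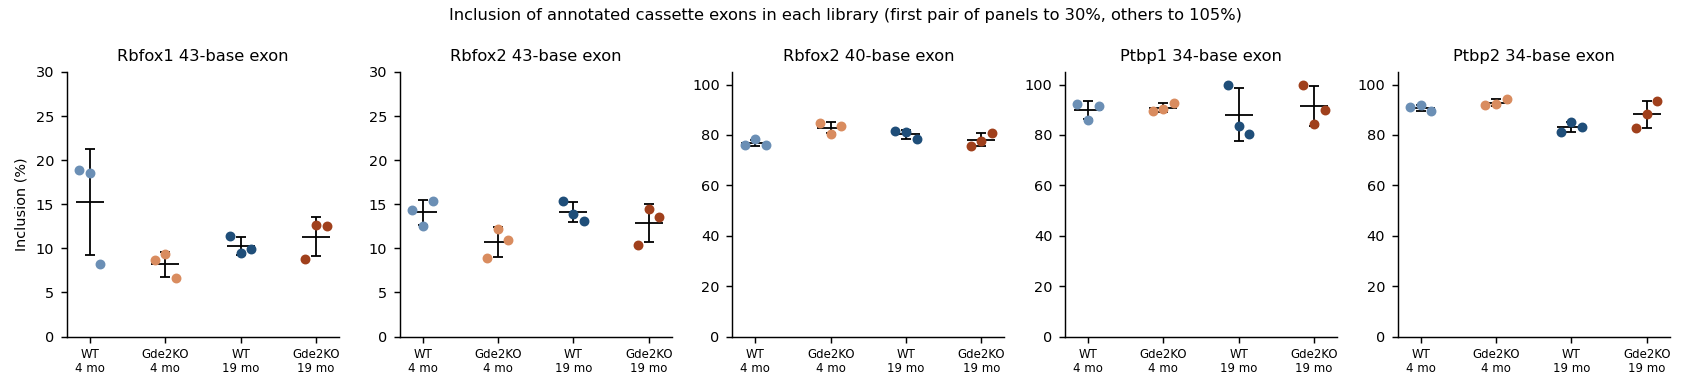
Percent inclusion of 5 exons (vertical axes from 0, with a shorter scale in the first panels) in the 4 groups, with a point for each library and black marks for the mean ± SD of 3. The *Rbfox1* 43-base exon is near 19% in WT 1 and 2 of 4 months, the *Rbfox2* exons do not overlap between genotypes at 4 months, and the *Ptbp2* exon is lower in WT at 19 months (81.0% to 85.1%) than at 4 months.

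All of the other exons overlapped between genotypes at 4 months, and all but 1 at 19 months. The *Elavl4* 39-base exon was included at 90.3% to 95.8% over all 12 libraries, and its *Elavl2* counterpart at 63.4% to 76.5%. The exception was an exon of *Elavl2*, 91 bases at chr4:91311573-91311663, which no annotated coding sequence covers in full. At 19 months it was at 60.6%, 59.6% and 61.7% in WT and 67.3%, 65.9% and 68.4% in *Gde2*KO (6.55 points, exact p = 0.1, and 3.94 points with shares of normalized counts). At 4 months the same exon was at 56.4% to 61.5% in WT and 56.1% to 60.3% in *Gde2*KO. The 16-base exon of *Srrm4* was included at 14.8%, 20.5% and 30.7% in WT and 17.2%, 21% and 13.2% in *Gde2*KO at 4 months, and at 11.7% to 24.5% over the 6 libraries of 19 months. The remaining exons, of *Nova1* (72 and 65 bases), *Rbfox3* (40 bases) and *Ptbp1* (78 bases), overlapped between genotypes at both ages, with mean differences of up to -5.88 points (*Nova1* 65 bases, 4 months).

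Among 24 other splicing regulators on a written list (CELF, MBNL, KHDRBS, further ELAVL and PTB proteins and related factors), none passed the test between genotypes at either age (limma). At an unadjusted p under 0.05 there were 0 at 4 months, against 10.6% of all genes, and 4 at 19 months, against 6.91%. Their median log2 differences were 0.00 and -0.05, beside 0.11 and -0.02 for all genes. The smallest adjusted p at both ages belonged to *Raver2*, a PTB-binding corepressor, at -0.92 ± 0.40 at 4 months (adjusted p = 0.463) and 0.34 ± 0.10 at 19 months (adjusted p = 0.614). Without WT 3 of 4 months *Raver2* passed at -1.45 (adjusted p = 0.00134), where 1510 of 18798 genes did. Of 18 genes known to carry exons that these regulators control, 17 could be tested for transcript usage and none was called at either age. At an unadjusted p under 0.05 there were 3 of 17 at 4 months, against 12.6% of all genes, and 0 at 19 months, against 5.10%. *Src*, a kinase with a neuronal microexon, had the smallest adjusted p at 4 months (0.0295), with a largest share difference of 5.38 points.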

How the data were processed

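The authors pseudoaligned paired-end, poly(A)-enriched reads to the GRCm38 transcriptome with Kallisto and normalized in Sleuth. The deposited signal values are estimated counts and TPM per transcript, each divided by a size factor of its library. The submitters' processing notes also name bcl2fastq 2.17, Trimmomatic 0.36 and STAR 2.5.2b. Gene values were sums over transcripts, and transcripts without a gene (0.541% to 0.605% of a library) were left out. limma 3.58.1 in R 4.3.3 was fitted with an intensity trend to log2(normalized count + 0.5) of genes with 5 or more in at least 47% of libraries, at each age and over 12 libraries, with Benjamini-Hochberg adjustment. A gene was called at an adjusted p under 0.1 with a change of over 0.5 on the natural-log scale (0.72 on log2), or at that p with no size limit for the interaction, and a usage call needed that p and a TPM share that differed by over 10 percentage points. Adding 0.5 understates changes of low genes. diffSplice used transcripts with a mean of 5 or more. Shares are of TPM. The commonest low value of a library was taken as 1 read, and depth as the total over that value. Libraries of 19 months carry no replicate number and are named A, B and C in column order. Members, lists and tests were chosen with earlier results of these data known. All 10 members are named, with leading, most different and cassette-exon features, the *Gdpd5* check, and from the lists genes called between genotypes and that of smallest adjusted p. The tests were run on simulated data first. Alternatives were another pseudocount, no filter, other scalings, TPM, library weights, a replicate block, and libraries left out, of which leaving out WT 1 and 2 together was chosen after seeing the data. The named result of 1 target gene is not reported here.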

Additional observations from a re-analysis of the deposited data

How the results depend on the processing

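Leaving out each library in turn gave 0 to 1 regulators called at 4 months, 0 to 2 for the interaction, 0 to 1 with age in WT, and 2 to 6 with age in *Gde2*KO at the adjusted p alone, against 0, 0, 1 and 6 with all libraries. It gave 0 to 1 for member usage, target usage and the other regulators at 4 months, and 3 to 6 of 14 exons without overlap at 4 months (23.0% to 36.7% of all exons in the same libraries) and 1 to 5 at 19 months (20.5% to 24.3%). Several log2 differences changed sign. They ranged from -0.08 to 0.08 for *Rbfox1*, -0.01 to 0.20 for *Ptbp2* and -0.03 to 0.35 for *Elavl2* at 4 months, and from -0.01 to 0.05 for *Rbfox1*, -0.02 to 0.06 for *Rbfox2*, -0.0045 to 0.14 for *Nova2*, -0.08 to 0.01 for *Elavl2* and -0.03 to 0.05 for *Srrm4* at 19 months.

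Library weights were estimated gene by gene because the default estimate did not converge. They gave 1 other regulator at 4 months (*Raver2*), where 2420 of 19035 genes were called. For the interaction they gave 4 regulators (*Nova1*, *Rbfox3*, *Elavl4* and *Srrm4*), where 6460 of 18731 genes passed. With age in WT, 8 regulators passed the adjusted p alone, where 11270 of 18731 genes did. The weights turned *Rbfox1* at 4 months to 0.14, *Elavl2* and *Srrm4* at 19 months to 0.03 and -0.02, and *Nova1* with age in *Gde2*KO to 0.03. Gene TPM gave 0 with age in WT and turned *Ptbp1* and *Ptbp2* at 4 months to -0.08 and -0.03, *Ptbp2* and *Elavl4* at 19 months to -0.18 and 0.07, and *Nova1* with age in *Gde2*KO to 0.20. Recomputed size factors gave 1 with age in *Gde2*KO (*Srrm4*) and turned *Nova1* there to 0.10. Without the shallow libraries, 0 were called with age in WT, 7 exons did not overlap at 19 months (35.3% of all exons), and *Ptbp2*, *Elavl2* and *Srrm4* at 19 months became -0.01, 0.00049 and -0.01. Without WT 1 and 2 of 4 months, which leaves 1 WT library of that age, 8 exons did not overlap at 4 months (47.1% of all exons), and *Rbfox1* became 0.03. Simes adjustment gave 1 target gene at 4 months. The causes of these changes were not tested. Another pseudocount and no filter changed no call of a regulator. Of 535 log2 differences recomputed, 494 kept their direction and side of the threshold.

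Over all genes, 24 were called at 4 months and 5 to 1510 with 1 library left out, 12 to 26 under the other settings and 2420 with weights. The same counts at 19 months were 18, 9 to 45, 14 to 34 and 57, for the interaction 9, 6 to 2029, 8 to 11 and 6460, with age in WT 2565, 1525 to 3096, 517 to 2938 and 4125, and with age in *Gde2*KO 2224, 1096 to 2851, 1668 to 2587 and 2929. Usage calls were 122 at 4 months (83 to 659 with 1 library left out, 262 with Simes) and 21 at 19 months (22 to 59, 47 with Simes, 122 without the shallow libraries).

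With the replicate number as a block at 4 months, 0 regulators were called by level and 0 by usage. The numbers did not pair the libraries, since deviations of same-numbered libraries correlated at 0.060, 0.007 and -0.048. There was no paired fit at 19 months or between ages, since the 19-month columns carry no replicate numbers. Depth limits the shallow *Gde2*KO library A most, where the 10 regulators rested on 135 to 1367 estimated reads and no *Ptbp1* transcript that skips the 34-base exon was counted.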

Other observations

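Some transcript shares of single libraries lay far from the rest. Elavl4-204 held 0.0177% of *Elavl4* TPM in the shallow WT library A of 19 months, against 13.3% to 31.3% in the other 11 libraries. Ptbp1-216, the leading *Ptbp1* transcript, held 12.6% in the shallow *Gde2*KO library A of 19 months and 30.5% to 46.8% elsewhere. Elavl2-206 held 18.3% of *Elavl2* TPM in that *Gde2*KO library, 7.17% and 7.40% in *Gde2*KO B and C, and 0.849% to 3.45% in WT of the same age (exact permutation test, p = 0.1, the smallest that 3 against 3 allow).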
